A study of Homo sapiens with 12 samples.

Results

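Cytosolic ribosomal proteins are the protein part of the ribosomes outside mitochondria. Their mRNAs were examined in MM.1S cells, an established human multiple myeloma line, under PIM447, pomalidomide and dexamethasone. The members were chosen by identity, as 59 genes for proteins of the large and the small ribosomal subunit, and 41 of them (24 of the large and 17 of the small subunit) were measured among the 17710 gene rows of the array table. The other 18 were not analysed here. There were 4 groups of 3 arrays. Control cells were untreated, with no time given. PIM cells received PIM447, an inhibitor of the PIM kinases, at 100 nM for 24 h. Pd cells received pomalidomide, an immunomodulatory drug that binds cereblon, at 200 nM together with dexamethasone, a glucocorticoid, at 5 nM for 15 h. PIM-Pd cells received the 3 drugs at these doses for 10 h. The treatments were sub-lethal and ran for different times, so drug and time cannot be told apart, and every group is of the same cell line. The arrays came from 3 independent experiments, each with 1 array of every group.

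Ribosomal proteins are assembled with ribosomal RNA in the nucleolus, and a growing cell spends much of its transcription on them. The transcription factor MYC raises the expression of many of these genes. Most of their mRNAs begin with a terminal oligopyrimidine (TOP) tract, an unbroken run of C and T that starts with C at the cap, which places their translation under the kinase complex mTORC1, largely through the RNA-binding protein LARP1. Such mRNAs can leave or join polysomes without a change in their amount. Plasma cells and many myelomas make large quantities of immunoglobulin and depend on a high rate of protein synthesis. The study evaluated the combined drugs against myeloma, and protein translation was part of the mechanism it examined. The question here is whether the amount of ribosomal protein mRNA differed between the groups, and the arrays did not measure translation.

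The start sites are shown first, because the tract is what this gene family shares. RefSeq start-site sequences (GRCh38.p14) were found for 33 of the 41 measured members. An annotated start with C at the first transcribed base and 4 or more pyrimidines after it was present in 25 of the 33 (75.8%), against 988 of 15843 protein-coding genes (6.24%). The tract ran over 6 to 16 bases, with a median of 8, and was longest in RPL7A. In the windows below, 10 bases before the start are followed by 20 bases from it, 5′ to 3′ on the coding strand, and capitals mark the tract. The first 7 are members with a tract whose values are given below, and RPL3 is a member without one.
RPS6: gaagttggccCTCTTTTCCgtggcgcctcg
RPS3: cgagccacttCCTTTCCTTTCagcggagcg
RPS14: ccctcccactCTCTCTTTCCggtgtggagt
RPS19: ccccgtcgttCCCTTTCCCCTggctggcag
RPLP2: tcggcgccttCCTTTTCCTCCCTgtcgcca
RPL11: gctccgctttCTCTTCCTgctctccatcat
RPL7A: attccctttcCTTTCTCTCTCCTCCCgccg
RPL3: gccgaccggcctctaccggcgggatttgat
The windows lie at chr9:19380217-19380246 (RPS6, minus strand), chr11:75399508-75399537 (RPS3, plus strand), chr5:150449720-150449749 (RPS14, minus strand), chr19:41860245-41860274 (RPS19, plus strand), chr11:809957-809986 (RPLP2, plus strand), chr1:23691796-23691825 (RPL11, plus strand), chr9:133348208-133348237 (RPL7A, plus strand) and chr22:39319604-39319633 (RPL3, minus strand). The annotated start of RPL3 begins with C, but its run of pyrimidines was 4 bases long and so fell short of the rule. No start with a tract was found for RPL4, RPL6, RPL10A, RPL15, RPL27, RPS4X and RPS15 either. The rule scored only runs that begin at the annotated start base. In RPL4 and RPL10A a run of pyrimidines lay a few bases after it and was not counted. Runs also lay farther in, within the first 20 bases of an annotated start, in RPL15, RPL27 and RPS15. Annotated starts need not be those used in these cells, which were not measured.

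In the 300 bases around the starts (250 before and 50 from the start), the ETS core CCGGAA on either strand was present in 20 of the 33 members (60.6%) and in 4218 of the 15843 coding genes (26.6%). Its reverse complement can overlap the end of the tract. The YY1 core CCATNTT, on either strand, was present in 8 of the 33 members (24.2%) and in 18.6% of coding genes. These are matches of letters, and binding was not measured.

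The rule that lists the members describes them as lying near the top of the array range. It concerns these same values, so what follows is no independent check. It held for most members and not for RPS27A and RPL7A. On the deposited log2 scale, the mean over the 12 arrays was above the 75th percentile of all rows (6.65) in 39 of the 41 members and above the 95th percentile (8.85) in 35. The highest member, RPS15 of the small subunit, had a mean of 12.59, and the highest of any row was 13.43. RPL7A (ENSG00000148303_at), a large subunit protein whose gene also carries small nucleolar RNAs, had a mean of 5.53, at the 59.6th percentile of rows. RPS27A (ENSG00000143947_at), which is made as a fusion to ubiquitin, had a mean of 4.57, below the median of all rows (4.85). Signals of different probe sets do not rank genes by abundance. In RNA from whole cultures, fewer cells of a kind and less RNA per cell cannot be told apart. The myeloma identity of the cells was not checked against marker genes, because no table used here names the other rows.

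**Figure D1:**
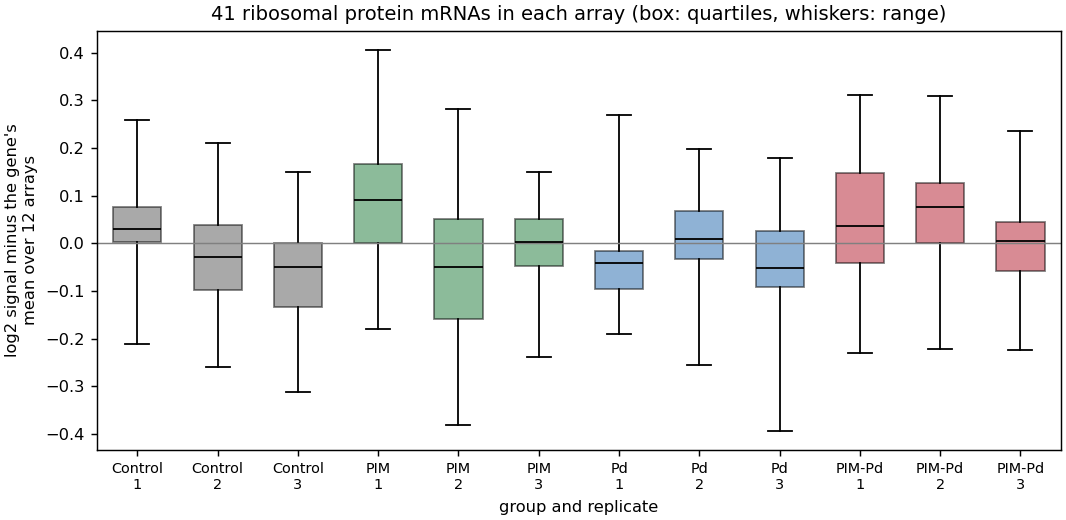
Deviation of each of the 41 ribosomal protein mRNAs from its own mean over the 12 arrays (log2), by array; boxes are quartiles with the median, and whiskers reach the lowest and highest gene. The array medians lie between -0.05 and 0.09, and those of the 4 groups overlap.

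Over the 41 members the median deviation of an array from the genes' own means was 0.03, -0.03 and -0.05 in Control replicates 1 to 3. It was 0.09, -0.05 and 0.00 in the PIM arrays, -0.04, 0.01 and -0.05 in the Pd arrays, and 0.04, 0.08 and 0.00 in the PIM-Pd arrays. The highest array median was in PIM and the lowest in Pd, and each pair of groups overlapped. PIM replicate 1 held the highest of the 12 values in 10 members, and PIM replicate 2 the lowest in 12. PIM-Pd replicates 1 and 2 held the highest in 9 and 8 members. The spread between replicates was small: the pooled SD within groups was 0.11 for the median member, against 0.17 for the median row, and it ran from 0.03 (RPS19) to 0.25 (RPL12). The difference between the highest and the lowest of the 12 arrays was between 0.14 and 0.71 over the members, widest in RPS20.

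No measured ribosomal protein mRNA differed between groups in any of the 5 comparisons at an adjusted p under 0.05 (limma over all 17710 rows, Benjamini-Hochberg). The share of all rows called was 0% in PIM against Control. It was 5.42% in Pd against Control (3.48% higher, 1.94% lower), 9.44% in PIM-Pd against Control (4.42% higher, 5.02% lower), 0.0791% in PIM-Pd against Pd (0.00565% higher, 0.0734% lower) and 5.66% in PIM-Pd against PIM (2.95% higher, 2.71% lower). At an unadjusted p under 0.05, 0, 0, 0, 2 and 1 of the 41 members passed in the same order, against 6.2%, 16.8%, 20.5%, 8.57% and 17% of all rows. The lowest adjusted p over the 205 tests of a member was 0.245 (RPL34, PIM-Pd against Control). Of the 236 other rows with a mean of at least 10, 0 were called in PIM against Control, 36 in Pd against Control, 49 in PIM-Pd against Control, 0 in PIM-Pd against Pd and 28 in PIM-Pd against PIM, and none of the 27 members at that level was called in any.

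The intervals of the differences were narrow beside a 2-fold difference. They concern signal relative to the other rows, because quantile normalization gives every array nearly the same distribution. A change shared by most mRNAs of a cell would not show. Whether signals near the top of the array range understate a difference was not tested. The 95% interval had a median half-width of 0.24 log2 units over the members, from 0.20 to 0.37. In all 205 tests it lay inside a 2-fold difference in either direction, and in 199 it lay within 0.5 log2 units of 0. For PIM-Pd against Control the lowest lower bound was -0.46 (RPS27A), a fold of 0.728, and the highest upper bound was 0.57 (RPL12), a fold of 1.49. The smallest difference called in any row was 0.38 in Pd against Control and 0.33 in PIM-Pd against Control.

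**Figure D2:**
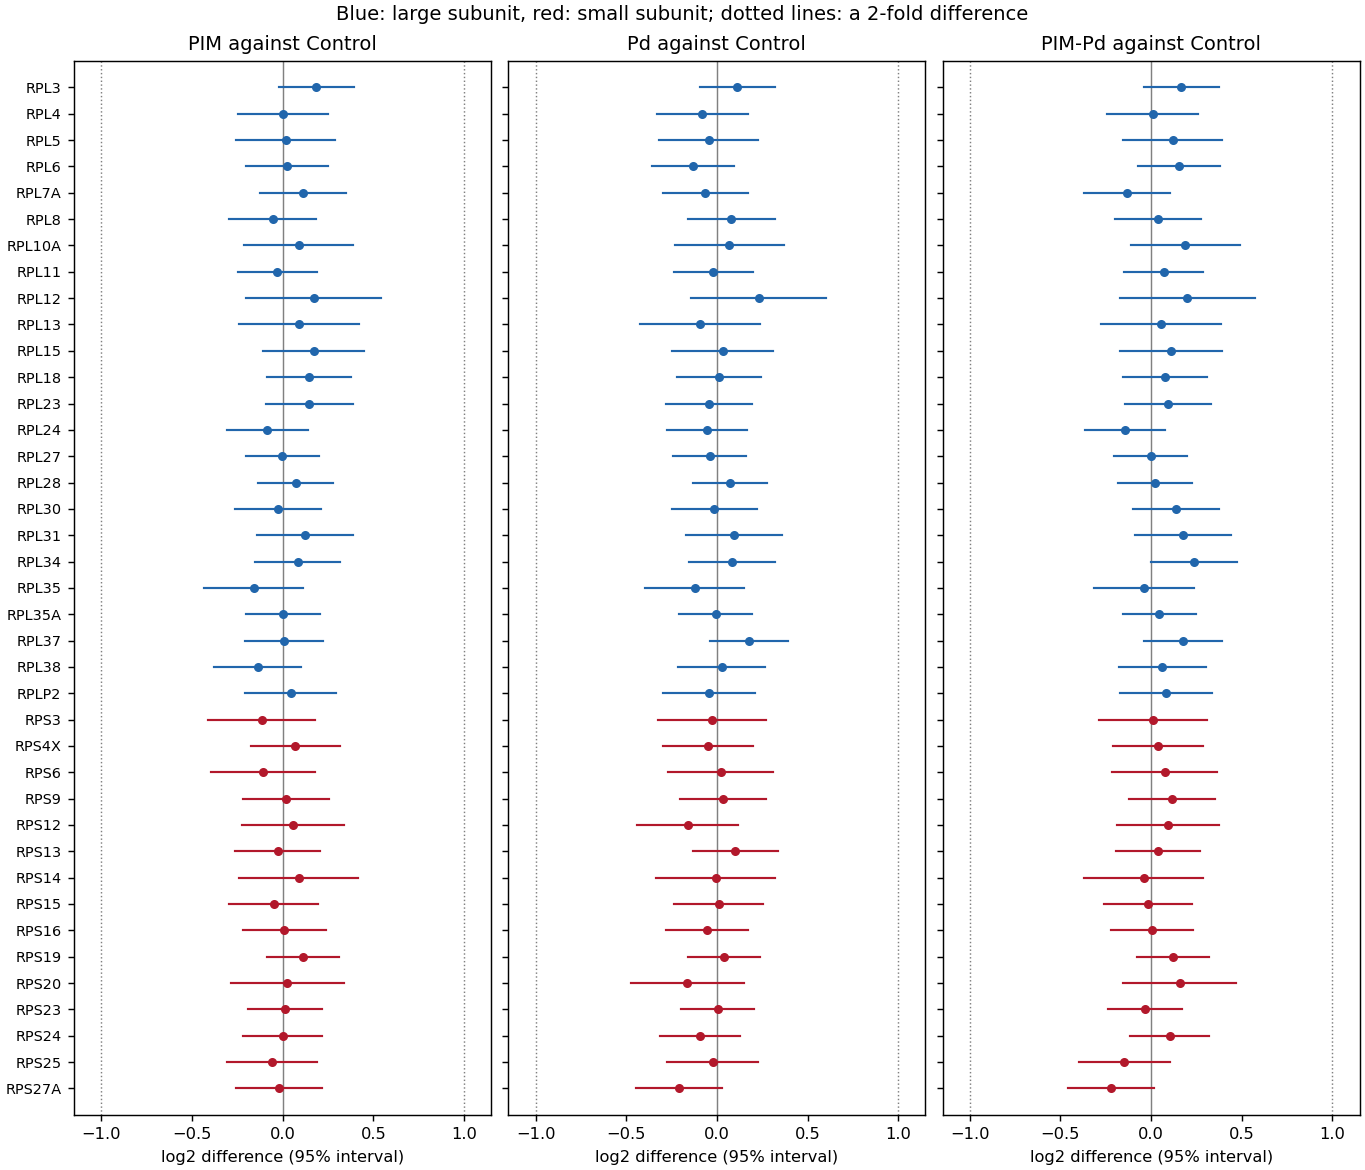
Log2 difference from Control with its 95% interval for 39 of the members under PIM, Pd and PIM-Pd (3 arrays a group, limma); blue marks the large subunit, red the small subunit, and dotted lines a 2-fold difference. Every interval lies inside the dotted lines.

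After PIM447 alone, the mean of every measured member was within 0.19 log2 units of that of Control. The 95% intervals reached down to -0.43 (RPL35) and up to 0.54 (RPL12). The median difference was 0.02, beside 0.01 over all rows, and 27 of the 41 members were above 0, beside 52.6% of rows. That direction was not stable: the median was -0.01 when each array was centred on its own median and -0.01 without PIM replicate 1, which left 17 members above 0. At the ends stood RPL3 (0.19 ± 0.10, SE, adjusted p = 0.807) and RPL35 (-0.16 ± 0.13, adjusted p = 0.886), both of the large subunit. All 3 PIM arrays lay above all 3 Control arrays in 2 members, RPL3 and RPS19 (5.99% of rows did), and in no member did they lie below (4.99% of rows did). With arrays paired by experiment, 9 members were higher in all 3 pairs (16.3% of rows were) and 2 were lower (14.8% of rows).

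Pomalidomide with dexamethasone gave differences from Control between -0.21 and 0.23. The median was -0.01, as it was over all rows, and 18 of the 41 members were above 0, beside 47.9% of rows. The sign of so small a median turned under cyclic loess scaling (0.01) and without Control replicate 1, Pd replicate 1 or Pd replicate 3 (0.01, 0.01 and 0.00). RPS27A was the farthest below (-0.21 ± 0.11, SE, adjusted p = 0.376), and RPL12, a protein at the base of the ribosomal stalk, the farthest above (0.23 ± 0.17, adjusted p = 0.599). RPL3, RPL37 and RPS19 were higher in every Pd array than in every Control array (12.4% of rows were), and RPS27A was lower in every one (12.3% of rows). In the pairs, 7 members were higher in all 3 (19.5% of rows) and 5 were lower (20.6% of rows).

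The triple combination, sampled at the shortest time, had a median difference from Control of 0.07, beside 0.01 over all rows. The difference was above 0 in 31 of the 41 members, beside 51.7% of rows, with 20 of the 24 large subunit and 11 of the 17 small subunit members among them. In this as in every comparison, the members share the same arrays and are not independent of each other. The array medians of Control and PIM-Pd overlapped, and the SD of array medians within groups was 0.05. Many alternatives, such as leaving out PIM or Pd arrays, leave these differences as they are and cannot move the median. Under those that could, it stayed above 0, from 0.03 with array median centring (24 members above 0) to 0.12 with cyclic loess (36 members above 0). It was 0.12 without PIM-Pd replicate 3 and 0.04 without PIM-Pd replicate 2. RPL34 was the highest (0.24 ± 0.11, SE, adjusted p = 0.245) and RPS27A the lowest (-0.22 ± 0.11, adjusted p = 0.290). The size of difference that 95% of all rows did not exceed was 0.66 here, and no member exceeded it. RPL3, RPL34, RPL37 and RPS19 were higher in every PIM-Pd array than in every Control array, which is 4 members beside 12.2% of rows, and RPS25 and RPS27A were lower, beside 12.5%. In the pairs, 12 members were higher in all 3 (20.7% of rows) and 5 were lower (20.1% of rows). The 3 comparisons with Control share the same Control arrays, so that a member low in those arrays, such as RPL3, appears in each.

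**Figure D3:**
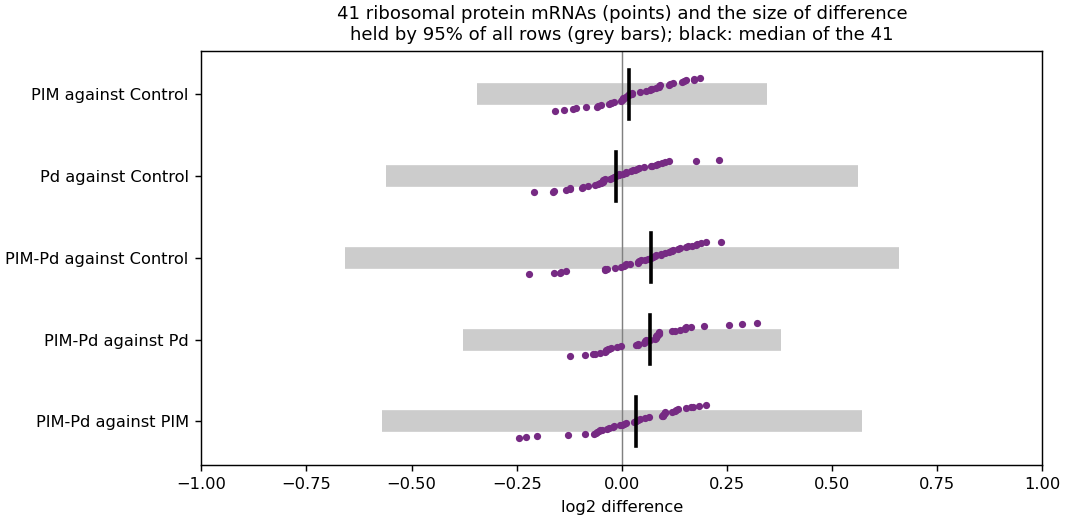
Log2 difference of each of the 41 ribosomal protein mRNAs (points, sorted) in the 5 comparisons, with their median as a black line; the grey bar spans the size of difference that 95% of all 17710 rows did not exceed. All points lie inside the bars, which reach 0.34 in PIM against Control and 0.66 in PIM-Pd against Control.

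The largest difference of any member, 0.32 in RPS20, was between PIM-Pd at 10 h and Pd at 15 h. The median for PIM-Pd against Pd was 0.07, beside 0.00 over all rows, and 28 of the 41 members were above 0, beside 50.6% of rows. Under the alternatives that could move it, the median stayed above 0, between 0.04 (without PIM-Pd replicate 2) and 0.09 (without Pd replicate 2). Leaving out Control or PIM arrays, among others, could not move it. RPL6, RPL23, RPL30, RPL34, RPS12, RPS19, RPS20 and RPS24 were higher in every PIM-Pd array than in every Pd array, which is 8 members (19.5%) beside 6.66% of rows, and no member was lower in every one, beside 7.79% of rows. In the pairs, 17 members (41.5%) were higher in all 3, beside 15.6% of rows, and 3 were lower, beside 16.7%. These members share the same 6 arrays and are not independent of each other, and the array medians of both groups overlapped.

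Between PIM-Pd and PIM the median was 0.03, beside -0.01 over all rows, and 25 of the 41 members were above 0, beside 48.2% of rows. Without PIM replicate 2 the median was -0.002. RPL37 was higher in every PIM-Pd array than in every PIM array (8.45% of rows were), and RPL7A and RPS27A were lower (9.35% of rows). In the pairs, 7 members were higher in all 3 (16.5% of rows) and 3 were lower (18.3% of rows).

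The large subunit members that were named for their roles are given first, whatever their values. RPL3 (ENSG00000100316_at), which reaches the catalytic centre of the ribosome, read 11.75, 11.80 and 11.85 in Control replicates 1 to 3, 12.02, 12.05 and 11.90 in PIM, 11.98, 11.89 and 11.87 in Pd, and 11.97, 11.97 and 11.95 in PIM-Pd. All 9 treated arrays were above all 3 Control arrays, which was so for 2 members and for 1.26% of rows (the reverse held for no member and for 1.73% of rows). The differences from Control were 0.19, 0.11 and 0.17 for PIM, Pd and PIM-Pd (SE 0.10 each), with adjusted p of 0.807, 0.669 and 0.391 (limma). RPL4 (ENSG00000174444_at), which lines the tunnel through which the new protein leaves, read 10.35, 10.09 and 10.24 in Control, 10.39, 10.14 and 10.17 in PIM, 10.12, 10.25 and 10.07 in Pd, and 10.20, 10.37 and 10.14 in PIM-Pd. Its groups overlapped throughout, and the differences from Control were 0.00, -0.08 and 0.01.

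RPL5 (ENSG00000122406_at) and RPL11 (ENSG00000142676_at) form a complex with 5S ribosomal RNA and, when free, bind MDM2. RPL5 read 10.62, 10.43 and 10.58 in Control, 10.65, 10.31 and 10.72 in PIM, 10.47, 10.53 and 10.49 in Pd, and 10.60, 10.86 and 10.53 in PIM-Pd. RPL11 read 11.03, 10.98 and 10.99 in Control, 11.04, 10.86 and 11.02 in PIM, 10.97, 11.03 and 10.94 in Pd, and 11.03, 11.19 and 10.99 in PIM-Pd. In both genes PIM replicate 2 was the lowest array and PIM-Pd replicate 2 the highest, and the groups overlapped. PIM-Pd differed from Control by 0.12 ± 0.13 in RPL5 and by 0.07 ± 0.10 in RPL11 (SE).

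RPLP2 (ENSG00000177600_at), a protein of the stalk that recruits elongation factors, read 11.94, 11.79 and 11.72 in Control, 12.08, 11.78 and 11.72 in PIM, 11.81, 11.77 and 11.74 in Pd, and 12.02, 11.88 and 11.80 in PIM-Pd. Replicate 1 was the highest array of each group, and the differences from Control were 0.04, -0.04 and 0.08. RPL12 (ENSG00000197958_at), which binds at the base of the stalk and was named after its values were seen, had the widest spread within groups of the members. It read 8.77, 8.56 and 8.48 in Control, 9.05, 8.37 and 8.89 in PIM, 9.02, 8.70 and 8.78 in Pd, and 8.53, 9.02 and 8.86 in PIM-Pd, so that Control overlapped each treated group.

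Of the small subunit, RPS6 (ENSG00000137154_at) is the substrate of the S6 kinases below mTORC1, and its phosphorylation is a common readout of that pathway. Its mRNA read 10.31, 10.25 and 10.26 in Control, 10.25, 9.90 and 10.35 in PIM, 10.39, 10.24 and 10.26 in Pd, and 10.31, 10.58 and 10.16 in PIM-Pd. The 3 Control arrays lay within the range of every treated group, and the lowest and the highest array were again replicates 2 of PIM and PIM-Pd. The differences from Control were -0.11, 0.02 and 0.08 (SE 0.13 each), and the 95% interval for PIM-Pd ran from -0.21 to 0.36.

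RPS3 (ENSG00000149273_at), at the entry of the mRNA channel, read 10.19, 10.14 and 10.34 in Control, 10.02, 9.97 and 10.34 in PIM, 10.02, 10.33 and 10.25 in Pd, and 10.01, 10.27 and 10.43 in PIM-Pd. RPS14 (ENSG00000164587_at), whose reduced dosage is a cause of the anaemia of the 5q- syndrome, read 9.10, 9.29 and 8.82 in Control, 9.49, 8.96 and 9.03 in PIM, 8.89, 9.14 and 9.16 in Pd, and 8.94, 9.04 and 9.11 in PIM-Pd. The groups of both genes overlapped, with the replicates of a group lying farther apart than the group means. RPS3 differed from Control by -0.12, -0.03 and 0.01 and RPS14 by 0.09, -0.01 and -0.04.

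RPS19 (ENSG00000105372_at), the gene most often mutated in Diamond-Blackfan anaemia, had the least spread of the members. It read 11.54, 11.55 and 11.55 in Control, 11.66, 11.65 and 11.66 in PIM, 11.59, 11.56 and 11.59 in Pd, and 11.72, 11.62 and 11.66 in PIM-Pd. As with RPL3, all 9 treated arrays were above the 3 Control arrays, and the steps were small: 0.11, 0.04 and 0.12 for PIM, Pd and PIM-Pd (SE 0.09 each). The adjusted p was 0.889, 0.910 and 0.550 (limma, which draws the spread of a gene towards that of all rows).

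**Figure D4:**
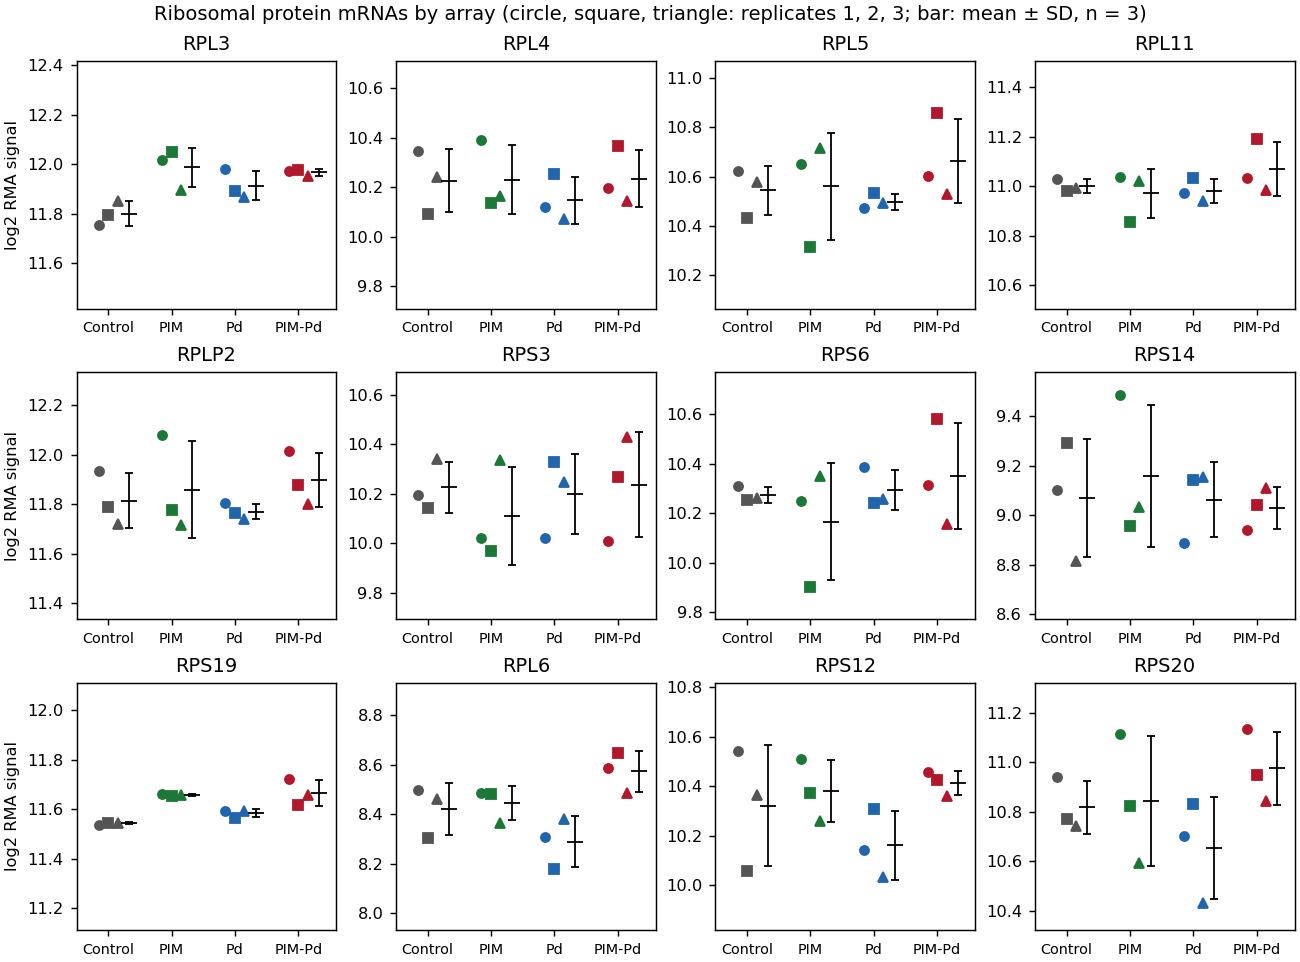
Log2 signal of 12 ribosomal protein mRNAs in each array; every panel spans 1 log2 unit, symbols mark replicates 1 to 3, and bars give the group mean ± SD (n = 3). The 9 treated arrays of RPL3 and of RPS19 lie above their 3 Control arrays, while most of the other genes overlap in all groups.

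The members below were named after their values were seen, for their place at the ends of a comparison. RPS20 (ENSG00000008988_at), of the head of the small subunit, read 10.94, 10.77 and 10.74 in Control, 11.11, 10.82 and 10.59 in PIM, 10.70, 10.83 and 10.43 in Pd, and 11.13, 10.95 and 10.84 in PIM-Pd. The lowest of the 12 arrays was Pd replicate 3 and the PIM-Pd arrays lay just above the Pd arrays, while both groups overlapped Control. PIM-Pd exceeded Pd by 0.32 ± 0.15 (SE, limma, unadjusted p = 0.0447, adjusted p = 0.566), a fold of 1.25.

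RPL6 (ENSG00000089009_at), of the large subunit, read 8.50, 8.30 and 8.46 in Control, 8.49, 8.48 and 8.37 in PIM, 8.31, 8.18 and 8.38 in Pd, and 8.59, 8.65 and 8.48 in PIM-Pd. Pd was the lower group and PIM-Pd the higher one, with Control and PIM between them and overlapping both. The difference of PIM-Pd from Pd was 0.29 ± 0.11 (SE, limma, unadjusted p = 0.0172, adjusted p = 0.465).

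RPS12 read 10.54, 10.06 and 10.36 in Control, 10.51, 10.37 and 10.26 in PIM, 10.14, 10.31 and 10.03 in Pd, and 10.46, 10.42 and 10.36 in PIM-Pd. RPS24, which is mutated in some families with Diamond-Blackfan anaemia, read 11.86, 11.73 and 11.80 in Control, 11.90, 11.69 and 11.79 in PIM, 11.76, 11.66 and 11.68 in Pd, and 11.95, 11.95 and 11.80 in PIM-Pd. In both genes the PIM-Pd arrays lay above the Pd arrays and overlapped Control. The difference of PIM-Pd from Pd was 0.25 ± 0.13 in RPS12 and 0.20 ± 0.10 in RPS24 (SE, adjusted p = 0.620 and 0.625, limma).

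RPL34 read 11.56, 11.40 and 11.39 in Control, 11.72, 11.39 and 11.49 in PIM, 11.46, 11.62 and 11.52 in Pd, and 11.70, 11.66 and 11.69 in PIM-Pd. Its PIM-Pd arrays lay close together, above those of Control and Pd and within the range of PIM. RPL37 read 11.09, 11.09 and 11.15 in Control, 11.15, 11.06 and 11.13 in PIM, 11.20, 11.28 and 11.38 in Pd, and 11.18, 11.31 and 11.36 in PIM-Pd. Here the 6 arrays with pomalidomide and dexamethasone lay above the 6 without. The difference from Control was 0.18 ± 0.10 in Pd and 0.18 ± 0.10 in PIM-Pd (SE, adjusted p = 0.424 and 0.380, limma). The split into 6 and 6 arrays was chosen after the values were seen, and the share of all rows with such a split was not counted.

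RPS27A and RPL7A, the members of low signal, and RPS25 stood at the lower end. RPS27A read 4.83, 4.65 and 4.57 in Control, 4.58, 4.77 and 4.65 in PIM, 4.52, 4.40 and 4.51 in Pd, and 4.47, 4.57 and 4.35 in PIM-Pd. The 6 arrays of Pd and PIM-Pd lay below the other 6, but PIM-Pd replicate 2 (4.570) only just below Control replicate 3 (4.573). This split too was chosen after the values were seen, without a count over all rows. RPL7A read 5.60, 5.64 and 5.40 in Control, 5.74, 5.65 and 5.59 in PIM, 5.48, 5.50 and 5.46 in Pd, and 5.57, 5.30 and 5.37 in PIM-Pd. Every PIM-Pd array of RPL7A was below every PIM array, and both groups overlapped Control. Its difference of PIM-Pd from PIM was -0.24 ± 0.11 (SE, limma, unadjusted p = 0.0424, adjusted p = 0.270). RPS25, used by ribosomes at some internal entry sites, read 7.84, 7.89 and 7.80 in Control and 7.56, 7.77 and 7.76 in PIM-Pd, a difference of -0.15 ± 0.12 (SE, adjusted p = 0.579, limma).

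A further 20 measured members had differences from Control between -0.16 (RPL35) and 0.17 (RPL15) for PIM, between -0.12 (RPL35) and 0.10 (RPS13) for Pd, and between -0.14 (RPL24) and 0.19 (RPL10A) for PIM-Pd. Of these 20 members, 12, 11 and 15 were above 0 in the same order. They lay between -0.09 (RPL24) and 0.15 (RPL30) in PIM-Pd against Pd, and between -0.07 (RPL18) and 0.20 (RPL38) in PIM-Pd against PIM. Their lowest adjusted p was 0.413 (RPL38, PIM-Pd against PIM, limma).

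The members were last set against their annotated starts. In PIM-Pd against Control the 25 members with a tract had a median difference of 0.06, the 8 without one of 0.07, and the 8 with no sequence of 0.13. The medians for Pd against Control were -0.01, -0.02 and -0.03 in the same order. For PIM against Control they were 0.01, 0.05 and 0.02. The ranges of the 3 classes overlapped in each comparison, and the difference between them was not tested. The class without a tract includes members whose run of pyrimidines lies after the annotated start base, such as RPL4 and RPL10A.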

How the data were processed

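Total RNA of 12 MM.1S cultures was hybridised to Clariom S human arrays. The deposited values are log2 expression that the authors made by RMA (background correction, quantile normalization, summary per gene) in oligo 1.44.0 under R 3.5.0 (submitters' processing notes), with a custom gene definition by Ensembl gene. Quantile normalization gives every array nearly the same distribution. The table was used as deposited. It gives no detection call and no counts, so the number of arrays limits the precision. No 2 columns were identical.

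Members and lists were chosen with earlier results of these data known. Member names came from the rule that lists the genes by Ensembl ID. Other gene lists and cell type markers that had been drawn up were not analysed here, because no table used here pairs the remaining rows with names. Named members were to be the 5 largest called in each direction of each comparison (none was called) and 15 fixed by role, of which 9 were measured. Others are named as chosen after their values were seen. The values of 2 measured members are counted in the totals and are not reported here one by one.

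A model with 4 group means was fitted to all 17710 rows of the 12 arrays with limma 3.58.1 (R 4.3.3), with Benjamini-Hochberg adjusted p under 0.05 as the call. It was run on simulated data with independent noise, no pairing, and planted differences larger than any of the members. That run does not show how differences of the members' size would be called. The SAM method of the study was not run. Intervals are 95% from the moderated fit, each for 1 gene. Related genes and processed pseudogenes can share probe sequence with ribosomal protein genes; how the probe sets treat them was not tested. The labels tag the replicate numbers as pairs. Deviations from the group means of arrays with the same number, in 18 pairs of arrays, correlated between -0.10 and 0.30, over 0.1 in 9 pairs. In the 36 pairs with different numbers they correlated between -0.35 and 0.20, over 0.1 in 3. For 10 of the 12 arrays the mean correlation was highest with arrays of the same number. The main model did not use the replicate number, which entered as a block in an alternative. Start sites came from RefSeq sequences of GRCh38.p14. The figures were drawn in matplotlib 3.10.9.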

Additional observations from a re-analysis of the deposited data

How the results depend on the processing

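No measured ribosomal protein mRNA was called under any of the 20 alternatives, of which 12 left out 1 array each. The alternative that added a fold change of at least 2 could only remove calls, so it could not call a member. The 9 members named by role stayed above the threshold in each alternative. With the replicate block the count of members called was 0 in every comparison, and over all rows it was 0 (PIM against Control), 1181 (Pd against Control), 1934 (PIM-Pd against Control), 11 (PIM-Pd against Pd) and 1262 (PIM-Pd against PIM), so it changed no call of a member. The median of the members in PIM-Pd against Control was 0.12 with cyclic loess, a move larger than the SD of the array medians within groups (0.05). The other medians moved by less than that SD, or not at all where a setting leaves the mean differences as they are. With the fold change of at least 2 added, the rows called were 191 in Pd against Control, 255 in PIM-Pd against Control, 1 in PIM-Pd against Pd and 173 in PIM-Pd against PIM. With array weights 1516 rows were called in Pd against Control, beside 960. In PIM-Pd against Pd, 14 rows were called, 26 with the trend and robust prior and 1 with only the 2 groups compared, which gave 455 in PIM-Pd against PIM, beside 1003. Leaving out 1 array gave 497 to 1049 rows in Pd against Control (lowest without replicate 1 or 3 of Control or of Pd), 1096 to 1771 in PIM-Pd against Control (fewest without Control replicate 3), 2 to 15 in PIM-Pd against Pd (fewest without Pd replicate 3) and 648 to 953 in PIM-Pd against PIM (fewest without PIM-Pd replicate 3). The lowest adjusted p of a member over all settings was 0.127, in PIM-Pd against Control with the trend and robust prior. Leaving out RPL7A and RPS27A, chosen after seeing the data, changed no median by more than that SD. The causes were not tested.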
